A study of Mus musculus with 6 samples.

Results

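The endothelin and nitric oxide genes are 10 genes of vascular tone: the ligands Edn1 and Edn3, the converting enzyme Ece1, the receptors Ednra and Ednrb, the nitric oxide synthases Nos1, Nos2 and Nos3, and the enzymes Ddah1 and Ddah2. They were taken by symbol from the deposited table of 18476 genes, and all 10 were found there. Their messenger RNA was measured by bulk RNA sequencing in femoral arteries of wild-type C57BL/6 mice at day 3 after wire injury, in which a guide wire damages the vessel from inside. Of the 6 libraries, 3 came from arteries treated around the vessel with saline and 3 from arteries treated with vasostatin-2, a fragment of the secretory-granule protein chromogranin A. All 6 shared the injury, the strain, the day and 1 batch, and each group is described by the submitters as 3 biological replicates. There was no uninjured artery among them, and the sources used here give no age for the mice. The labels name vascular smooth muscle cells, but the extraction text describes RNA from injured arteries. The question was whether vasostatin-2 around the vessel alters transcripts of this system while the injury is fresh.

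Endothelins are short peptides cut from larger precursors by endothelin-converting enzyme. In arteries, endothelin-1 from the endothelium contracts smooth muscle mainly through receptor A, while receptor B on endothelial cells triggers nitric oxide release and clears the peptide. Nitric oxide relaxes smooth muscle through guanylate cyclase and cyclic GMP. Nos3 is the endothelial synthase, Nos1 the neuronal and muscle synthase, and Nos2 the inducible synthase of activated macrophages and injured smooth muscle. Ddah1 and Ddah2 belong to the family of enzymes that break down asymmetric dimethylarginine, a natural inhibitor of these synthases.

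Depth was even, with between 19333730 and 20105995 estimated counts a library. CPM, the count scaled to library size, is used within a gene, and the deposited TPM, which divides by transcript length, is used between genes. There were 3 libraries that stood apart in markers of other tissues. Schwann cell markers summed to 575 TPM in saline replicate 3 and to between 36.8 and 71.9 TPM elsewhere. Skeletal muscle markers summed to 1211 TPM in vasostatin-2 replicate 3 and to between 70.0 and 123 TPM elsewhere. Erythroid markers summed to 43386 TPM in saline replicate 2 and to between 1149 and 9491 TPM in the other libraries. Smooth muscle markers, all 8 of them detected, summed to between 780.1 and 1743 TPM with saline and between 833.6 and 2096 TPM with vasostatin-2, while 8 macrophage markers summed to between 11319 and 15984 TPM over the 6 libraries. In such bulk samples fewer cells of a type and less RNA per cell cannot be told apart.

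**Figure D1:**
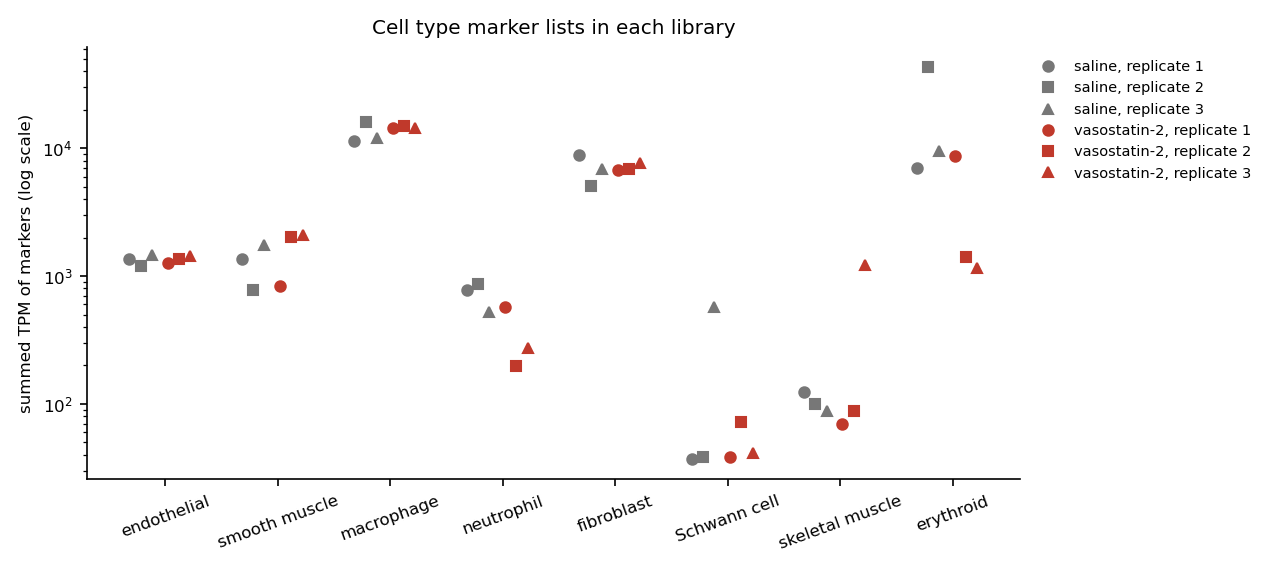
Summed TPM of 8 marker lists (vertical axis, log scale) in each of the 6 libraries; grey is saline, red is vasostatin-2, and the symbol gives the replicate. Schwann cell markers stand out in saline replicate 3 (575 TPM), skeletal muscle markers in vasostatin-2 replicate 3 (1211 TPM) and erythroid markers in saline replicate 2 (43386 TPM).

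The promoters of the DDAH pair are shown because these paralogs had fold changes of opposite sign. RefSeq promoter sequences (GRCm38.p6) were matched for 8 of the 10 genes, not for Nos2 or Nos3. The 250 bases before the start of Ddah1 lie on the plus strand at chr3:145758442-145758691, and those of Ddah2 on the plus strand at chr17:35058785-35059034. Capitals mark matches, on either strand, to any motif searched: TATAAA, the GC box GGGCGG, the hypoxia response core ACGTG, the AP-1 site TGANTCA, the STAT site TTCNNNGAA, the GATA site AGATAA and the NF-kB consensus. No marked match overlaps another.
Ddah1: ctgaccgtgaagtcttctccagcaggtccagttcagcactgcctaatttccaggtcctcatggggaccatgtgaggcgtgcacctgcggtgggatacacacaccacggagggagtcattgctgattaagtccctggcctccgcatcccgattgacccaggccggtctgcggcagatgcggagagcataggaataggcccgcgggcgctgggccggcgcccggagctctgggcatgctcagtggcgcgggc
Ddah2: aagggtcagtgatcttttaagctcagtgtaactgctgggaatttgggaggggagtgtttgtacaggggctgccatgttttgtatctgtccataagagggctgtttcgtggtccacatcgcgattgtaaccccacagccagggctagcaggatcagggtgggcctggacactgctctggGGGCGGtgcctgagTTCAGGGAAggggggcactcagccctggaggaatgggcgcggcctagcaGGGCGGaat
The Ddah2 window held 2 GC boxes, a motif found in 32.7% of the 32851 promoter windows of this length, and 1 STAT site, found in 7.02% of them. None of the motifs searched was in the Ddah1 window. The Ddah1 window held 64% G and C and 17 CG dinucleotides, and the Ddah2 window 58% and 7, against a median of 52.4% G and C over all promoter windows. A match is a description of letters, and binding was not measured.

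The 10 genes covered a wide range of levels. Per transcript length, Ece1 was the most abundant at 160 ± 18.2 TPM (SD over the 6 libraries), a share of 36.2% of their summed TPM. Below it came Ednrb at 72.5 ± 19.9 TPM, Ddah2 at 68.5 ± 12.2 TPM, Nos3 at 54.6 ± 7.11 TPM and Ednra at 36.1 ± 6.38 TPM. Ddah1 was at 24.6 ± 11.7 TPM, Edn1 at 20.7 ± 4.78 TPM and Nos2 at 3.99 ± 1.74 TPM. Nos1 was at 0.18 ± 0.047 TPM and Edn3 at 0.093 ± 0.077 TPM. The library ranges of Ece1 and Ednrb, of Edn1 and Nos2, and of Nos2 and Nos1 did not overlap. Among other neighbours in this order, Nos3 and Ednra differed by more than the sum of their SDs, and the remaining neighbours did not. Compared within libraries, Ddah2 lay above Nos3 and Ednra above Ddah1 in all 6. Nos1 lay above Edn3 in 5 libraries, Ednrb above Ddah2 in 4 and Ddah1 above Edn1 in 3. Transcripts of the converting enzyme and receptor B were thus more abundant than those of the ligand Edn1 in every library.

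Among the 9 genes that passed the low-count filter, Nos2 and Ddah1 were lower and Nos3 higher with vasostatin-2, with no overlap between groups. None passed the quasi-likelihood test of edgeR (Benjamini-Hochberg adjusted over 14557 genes) at 0.05, which called 0 genes in all (0%). The same 3 genes had an unadjusted p below 0.05, against 7.14% of all genes tested (3.29% higher and 3.85% lower). Groups did not overlap in 12.8% of all genes, 6.07% higher and 6.72% lower. DESeq2 with Benjamini-Hochberg adjustment called 1 of the 9, Nos2, against 0.809% of the genes it adjusted, and 113 in all. limma-voom with quality weights called 0 genes, with 4 of the 9 at an unadjusted p below 0.05, against 10.8% of all. Of the 9, 4 were higher and 5 lower, with a median log2 fold change of −0.035, beside −0.00068 over all genes. Because the genes were chosen with earlier results known, these counts are descriptions.

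**Figure D2:**
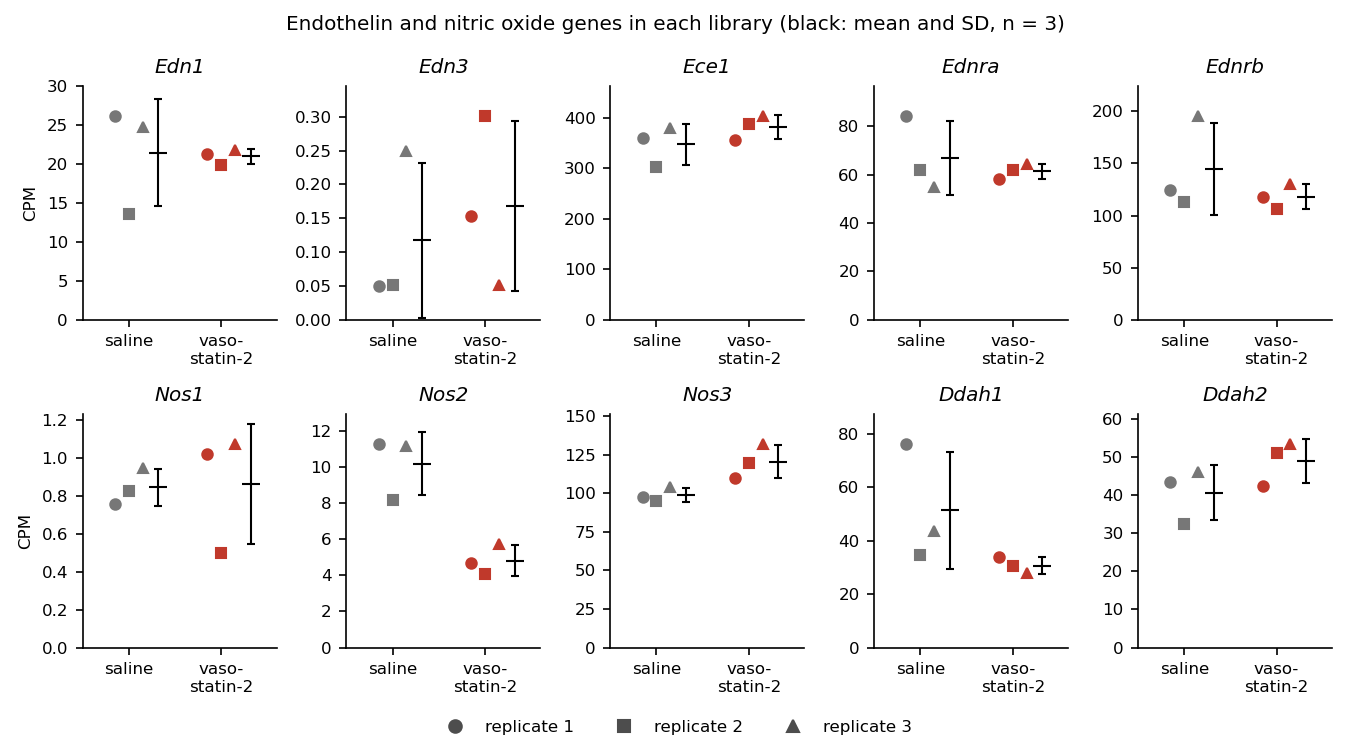
CPM of each of the 10 genes (vertical axis from 0) in the 3 saline libraries (grey) and the 3 vasostatin-2 libraries (red); symbols give the replicate, black marks the mean and SD. The groups do not overlap for Nos2, Nos3 and Ddah1, and saline replicate 3 is the highest library for Ednrb.

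Nos2, the inducible synthase (gene 18126, chromosome 11, 78920787 to 78960226, GRCm38.p6), was at 11.3, 8.16 and 11.2 CPM in saline replicates 1, 2 and 3. With vasostatin-2 it was at 4.70, 4.05 and 5.72 CPM. Every vasostatin-2 library lay below the lowest saline library, saline replicate 2. The mean was 4.82 ± 0.837 CPM against 10.2 ± 1.76 CPM (SD, n = 3 each), or 52.7% lower. edgeR gave a log2 fold change of −1.08 (SE 0.19, 95% interval −1.53 to −0.63), an unadjusted p of 8.14e-04 and an adjusted p of 0.422, placing Nos2 28th of 14557 genes by p. DESeq2 gave an adjusted p of 0.00136, and the authors' deposited table gives a log2 fold change of −1.08 and a q of 0.00212, with 0.533% of its genes at a q below 0.05. The exact two-sided permutation test over libraries gave 0.1, the smallest p that 3 against 3 allows.

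Leaving out single libraries moved the log2 fold change of Nos2 to between −1.22 and −0.97, lower with vasostatin-2 each time. The DESeq2 call was lost without vasostatin-2 replicate 2 (DESeq2 adjusted p = 0.106). Nos2 is expressed by activated myeloid cells, and the markers of these cells were read beside it. Of 8 macrophage markers, 7 had higher and 1 a lower fitted value with vasostatin-2, 4 of them at an unadjusted edgeR p below 0.05 and higher, against 3.29% of all genes in that direction. The list summed to between 14318 and 15034 TPM with vasostatin-2 and between 11319 and 15984 TPM with saline. All 6 tested neutrophil markers of 8 had lower fitted values, 2 at an unadjusted edgeR p below 0.05, against 3.85% of all genes in that direction, and the list summed to between 197 and 577.6 TPM with vasostatin-2 and between 520.9 and 869 TPM with saline. The sums of both lists overlapped between groups, and 0 markers of either list passed Benjamini-Hochberg adjustment in edgeR, DESeq2 or limma-voom. None of the markers in these lists was at 0 in every library. Saline replicate 2 had the highest sums of both lists and of erythroid markers, and the lowest Nos2 of the saline group. Injured smooth muscle is another source of Nos2. All 8 smooth muscle markers had higher fitted values with vasostatin-2 (median log2 fold change 0.39). Of these, 0 had an unadjusted edgeR p below 0.05, against 3.29% of all genes in that direction. The part of these cell types in the Nos2 difference was not tested.

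Nos3, the endothelial synthase (gene 18127, chromosome 5, 24364816 to 24384474), was at 97.5, 95.1 and 104 CPM with saline. With vasostatin-2 it was at 110.1, 120 and 132 CPM. The lowest vasostatin-2 library, replicate 1, lay above the highest saline library, replicate 3. The group means were 120 ± 10.8 and 98.8 ± 4.48 CPM (SD, n = 3 each), a ratio of 1.22. It had a log2 fold change of 0.29 (SE 0.08, 95% interval 0.088 to 0.48), an edgeR adjusted p of 0.601 and a DESeq2 adjusted p of 0.288. Of 10 endothelial markers, 5 were higher and 5 lower, with a median log2 fold change of 0.038. That list summed to between 1203 and 1464 TPM with saline and between 1265 and 1429 TPM with vasostatin-2, and these ranges overlapped. At an unadjusted edgeR p below 0.05, 1 of the 10 was higher and 2 were lower, against 3.29% and 3.85% of all genes, and 0 passed adjustment. The higher one was Cldn5, a tight junction protein, at a log2 fold change of 0.32 (edgeR adjusted p = 0.684). The lower ones were Cdh5, the endothelial cadherin, at −0.22 and Erg, a transcription factor of endothelial cells, at −0.20 (edgeR adjusted p = 0.681 for each). The 3 were named after their values were seen. The part of endothelial RNA in the Nos3 values was not tested. Atg9b overlaps Nos3 on the opposite strand. Its counts were between 1.70% and 2.18% of those of Nos3, and the strand setting of the counting is not given.

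**Figure D3:**
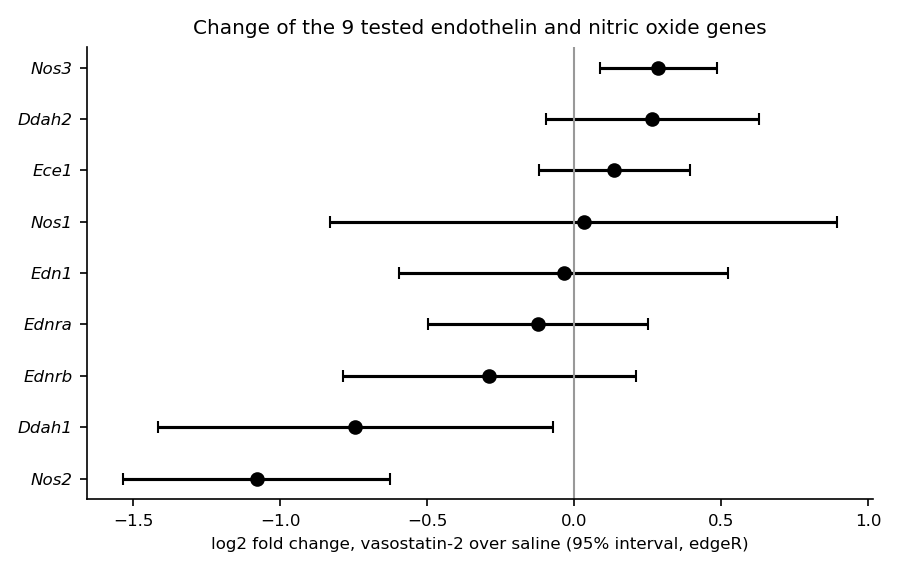
Log2 fold change of the 9 tested genes, vasostatin-2 over saline (horizontal axis), with 95% intervals from edgeR. The intervals of Nos2 (−1.53 to −0.63), Ddah1 (−1.42 to −0.073) and Nos3 (0.088 to 0.48) do not include 0; those of the other 6 do.

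Nos1, the neuronal and muscle synthase, was scarce, with 0.758, 0.827 and 0.947 CPM in saline and 1.02, 0.501 and 1.07 CPM with vasostatin-2. For Nos1 the log2 fold change was 0.033 with a 95% interval of −0.83 to 0.89, so changes of up to 1.86-fold in the higher direction lie within it. Skeletal muscle fibres contain Nos1. The library with the highest Nos1, vasostatin-2 replicate 3, was also the one with high muscle markers, and vasostatin-2 replicate 1, next at 1.02 CPM, had the lowest sum of these markers. The part of muscle RNA in the Nos1 values was not tested. Summing the 3 synthases per length, Nos3 made up between 88.9% and 91.3% of their TPM with saline and between 95.3% and 96.3% with vasostatin-2. Nos2 made up 10.9%, 8.37% and 10.1% with saline, against 4.35%, 3.53% and 4.39% with vasostatin-2. The ratio of Nos3 to Nos2 TPM was thus between 8.18 and 10.9 with saline and between 21.7 and 27.3 with vasostatin-2. Both genes already separated the groups, in opposite directions, so the separation of their ratio was fixed by them. Endothelial synthase transcripts outnumbered inducible ones in all 6 libraries.

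Ddah1 (gene 69219, chromosome 3, 145758692 to 145894277) was at 76.0, 34.6 and 43.4 CPM with saline. In the vasostatin-2 libraries Ddah1 was at 33.8, 30.5 and 27.7 CPM. The groups did not overlap, but the gap between saline replicate 2 and vasostatin-2 replicate 1 was small, and saline replicate 1 stood far above the rest. The means were 30.6 ± 3.03 and 51.4 ± 21.8 CPM (SD, n = 3 each), or 40.3% lower. The log2 fold change of −0.74 (SE 0.28) had an edgeR adjusted p of 0.681 and a DESeq2 adjusted p of 0.337. Without saline replicate 1 it was −0.35 (edgeR adjusted p = 0.680). Without saline replicate 2 it was −0.96, and DESeq2 then called it (adjusted p = 0.00816). Saline replicate 1 also had the highest sum of 6 fibroblast markers, 8904 TPM, beside 5036 and 6890 TPM in the other saline libraries and between 6790 and 7689 TPM with vasostatin-2. Col1a1, a collagen gene and the most abundant of the 6, was highest in that library, at 19344 CPM against between 10609 and 14963 CPM in the others, while Dcn, Lum, Pi16, Dpt and Pdgfra were not. Unlike Ddah1, 5 of the 6 markers had higher fitted values with vasostatin-2, 3 at an unadjusted edgeR p below 0.05, against 3.29% of all genes in that direction. edgeR called 0 of the 6 after adjustment and DESeq2 called 1, Pdgfra (DESeq2 adjusted p = 0.0143), against 0.809% of the genes it adjusted. The part of fibroblast RNA in the Ddah1 values was not tested.

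Ddah2 (gene 51793, chromosome 17, 35059035 to 35062099) was at 43.4, 32.3 and 46.1 CPM with saline and at 42.3, 51.0 and 53.3 CPM with vasostatin-2. The groups overlapped, and saline replicate 2 was the lowest library. For Ddah2 the log2 fold change was 0.27 (95% interval −0.097 to 0.63) with an edgeR adjusted p of 0.760. Without saline replicate 2 the value for Ddah2 was 0.13. Set against each other per length, the ratio of Ddah2 to Ddah1 TPM was 1.44, 2.37 and 2.75 in the saline libraries. With vasostatin-2 the ratio of Ddah2 to Ddah1 was 3.24, 4.27 and 5.02, so that the groups did not overlap. The ratio is built from the values of Ddah1 and Ddah2 and is not a separate result. Transcripts of Ddah2 were the more abundant of the pair in every library.

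**Figure D4:**
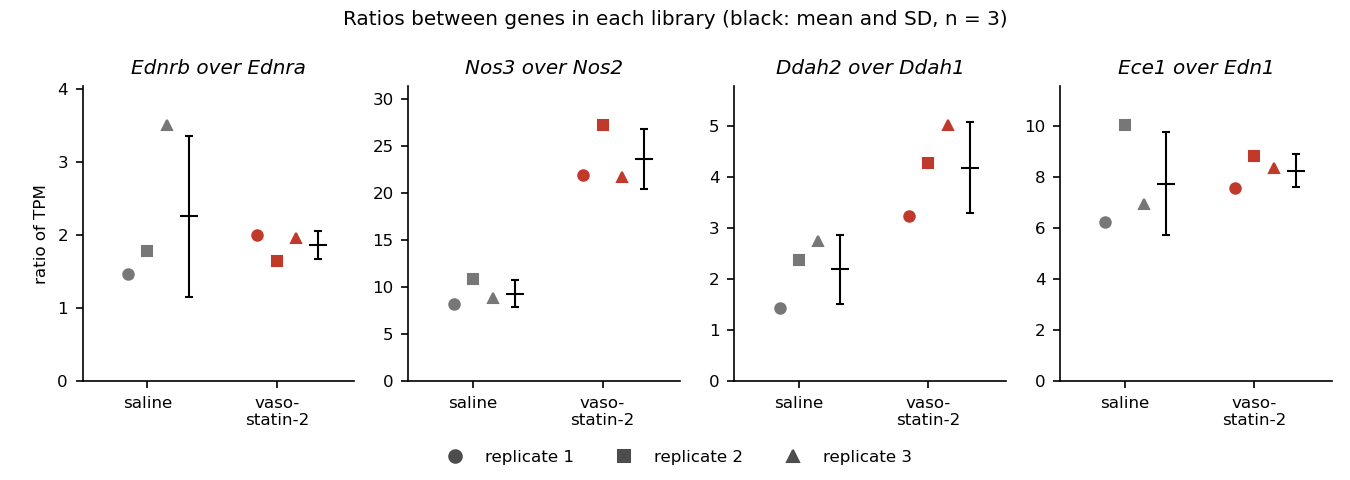
Ratios of TPM between pairs of genes (vertical axis from 0) in each library, with group mean and SD in black; grey is saline and red is vasostatin-2. The groups do not overlap for Nos3 over Nos2 (8.18 to 10.9 against 21.7 to 27.3) or Ddah2 over Ddah1 (1.44 to 2.75 against 3.24 to 5.02), and overlap for Ednrb over Ednra and Ece1 over Edn1. Ratios are built from the values of the single genes and are not separate results.

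On the endothelin side, Edn1, Ece1, Ednra and Ednrb overlapped between groups, and with all 6 libraries edgeR gave none of them an unadjusted p below 0.05. Edn1, the vasoconstrictor ligand (gene 13614, chromosome 13, 42301476 to 42307990), was at 26.1, 13.6 and 24.8 CPM with saline and at 21.3, 19.9 and 21.8 CPM with vasostatin-2. All 3 vasostatin-2 libraries lay inside the saline range, whose low end was saline replicate 2. The log2 fold change of Edn1 was −0.035, with a 95% interval of −0.59 to 0.52, which leaves room for changes between 0.662-fold and 1.44-fold. Without saline replicate 2 it was −0.28 (unadjusted p = 0.0145 and adjusted p = 0.335 in edgeR, unadjusted p = 0.0367 and adjusted p = 0.463 in DESeq2). Its coefficient of variation was 32.0% with saline and 4.74% with vasostatin-2. Of the 9 tested genes 6 varied more in the saline group, or 66.7%, and so did 65.8% of all genes tested. Edn3, the ligand with high affinity for receptor B, had 1, 1 and 5 counts in saline and 3, 6 and 1 counts with vasostatin-2. It did not pass the filter, and a difference was not detectable at this depth.

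Ece1, the converting enzyme (gene 230857, chromosome 4, 137862237 to 137965229), was at 360, 302 and 380 CPM with saline and at 356, 387 and 402 CPM with vasostatin-2. The 2 groups overlapped, and saline replicate 2 was again the lowest library. The log2 fold change of Ece1 was 0.14 (95% interval −0.12 to 0.39), with an edgeR adjusted p of 0.831. It was 0.046 without saline replicate 2 and 0.21 without saline replicate 3. In the deposited coordinates 5 further genes overlap Ece1, and the largest by counts was Zfp984 on the opposite strand, at between 7.85% and 13.8% of the counts of Ece1. Zfp984 itself had a log2 fold change of −0.00091. The positions of these 5 genes were not checked against another annotation.

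Ednra, the receptor that contracts smooth muscle, was at 84.0, 61.8 and 54.7 CPM with saline and at 58.2, 61.8 and 64.3 CPM with vasostatin-2. The vasostatin-2 values again lay within the saline range. Its log2 fold change was −0.12 (95% interval −0.50 to 0.25), and 0.076 without saline replicate 1. The deposited table puts Ednra on the plus strand of chromosome 8, from 77663029 to 77769682. GENCODE M21, on GRCm38, puts it on the minus strand from 77663031 to 77724464. Of its 4 deposited transcripts, 3 are RNAcentral entries, that is, from a collection of non-coding RNA sequences. How this bears on its counts was not tested. Such an entry was present for 8 of the 10 genes and for 9461 of all 18476.

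Ednrb, the receptor of endothelial cells and of neural crest derivatives such as Schwann cell precursors (gene 13618, chromosome 14, 103814615 to 103844508), was at 125, 113 and 195.0 CPM with saline. With vasostatin-2 Ednrb was at 118, 106 and 130.2 CPM. Saline replicate 3 stood apart, and the other 5 libraries lay between 106 and 130.2 CPM. With all libraries the log2 fold change of Ednrb was −0.29 (95% interval −0.79 to 0.21), with an edgeR adjusted p of 0.810. Without saline replicate 3 it was −0.0075 (edgeR adjusted p = 0.994). limma-voom with quality weights gave −0.44 over all libraries (unadjusted p = 0.0491, adjusted p = 0.460). Without saline replicate 2, DESeq2 gave Ednrb −0.44 as well (unadjusted p = 0.0290, adjusted p = 0.411). Saline replicate 3 was the library with a sum of 575 TPM for 7 Schwann cell markers, of which 6 were lower with vasostatin-2. The part of nerve RNA in the Ednrb values was not tested. The ratio of Ednrb to Ednra TPM was 1.47, 1.79 and 3.52 with saline, and with vasostatin-2 it lay between 1.64 and 2.001.

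Other genes of these pathways were read from 6 lists. The arginine list, which covers the substrate that synthases and arginases share, had a median log2 fold change of −0.31, with 6 of 8 genes lower and 2 at an unadjusted p below 0.05, both lower, against 3.85% of all genes in that direction. edgeR called 0 of the 8 and DESeq2 called 1, Arg1, against 0.809% of the genes it adjusted. Arg1, the arginase that competes with Nos2 for arginine in macrophages, was at 128, 155 and 106 CPM with saline and at 65.9, 38.8 and 64.8 CPM with vasostatin-2. The groups did not overlap, as for 6.72% of all genes in the lower direction. The log2 fold change of Arg1 was −1.20 (SE 0.23), with an edgeR adjusted p of 0.458 and a DESeq2 adjusted p of 2.54e-04. The 2nd of these 2 genes, named after its values were seen, was Slc7a2, an arginine transporter, at 108, 50.8 and 46.0 CPM with saline and 39.9, 39.1 and 34.6 CPM with vasostatin-2. Its highest library was saline replicate 1, as for Ddah1. Asl, argininosuccinate lyase and also named after its values were seen, had no overlap in the other direction, at a log2 fold change of 0.10 (edgeR adjusted p = 0.810). No overlap in that direction was seen for 6.07% of all genes. Oat, ornithine aminotransferase and the most abundant of the list, had a log2 fold change of 0.11, and 0.050 without saline replicate 2.

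In the cofactor list, 6 of 8 genes were higher and 2 lower, with a median of 0.048. At an unadjusted p below 0.05 there was 1 gene, lower, against 3.85% of all genes in that direction, and 0 after adjustment in edgeR or DESeq2. The gene, named as the one with the smallest p, was Gch1, the rate-limiting enzyme of tetrahydrobiopterin synthesis, at 11.01, 11.7 and 13.8 CPM with saline and 9.45, 9.21 and 9.70 CPM with vasostatin-2. Its groups did not overlap, as for 6.72% of all genes in the lower direction, and its log2 fold change was −0.36 (edgeR adjusted p = 0.631). Spr, sepiapterin reductase and the most abundant of that list, had a log2 fold change of 0.034.

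Downstream of nitric oxide, the guanylate cyclase and cyclic GMP list had 3 genes higher and 9 lower of 12, a median of −0.049 and 0 genes at an unadjusted p below 0.05. Its extremes were between −0.16 and 0.31. Vasp, a cytoskeletal target of cyclic GMP-dependent kinase and the most abundant of the list, had a log2 fold change of −0.14 (edgeR adjusted p = 0.810), and −0.027 without saline replicate 1. Methylarginine genes had 2 of 6 tested genes higher and 4 lower, with a median of −0.039 and 0 at an unadjusted p below 0.05. Prmt1, the main asymmetric arginine methyltransferase, and Prmt3 had log2 fold changes of −0.074 and −0.17. The groups of Prmt3 did not overlap, as for 6.72% of all genes in the lower direction. For Prmt3 limma-voom gave an unadjusted p of 0.0348 and an adjusted p of 0.437, with 10.8% of all genes below 0.05 unadjusted.

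On the side of synthase partners, 7 of 16 genes were higher and 9 lower, with a median of −0.0025. At an unadjusted p below 0.05 there was 1 of the 16, a share close to the 7.14% of all genes, and 0 after adjustment in edgeR or DESeq2. The gene with the smallest p was Cav1, the caveolar protein that binds and restrains Nos3, at 578, 682 and 706 CPM with saline and 840, 824 and 762 CPM with vasostatin-2 (log2 fold change 0.30, edgeR adjusted p = 0.681). Hsp90ab1, a chaperone that binds Nos3 and the most abundant of that list, had a log2 fold change of 0.010. Endothelin coupling genes had 7 of 13 tested genes higher and 6 lower, a median of 0.00057 and 1 at an unadjusted p below 0.05, again close to the 7.14% of all genes, with 0 after adjustment in edgeR or DESeq2. Smallest in p was Gna12, a G protein alpha subunit, at 81.2, 87.6 and 74.4 CPM with saline and 101, 100.3 and 100.1 CPM with vasostatin-2 (log2 fold change 0.31, edgeR adjusted p = 0.519). Arrb2, a beta-arrestin that desensitises receptors, had a log2 fold change of 0.12, which lay between 0.050 and 0.22 when single replicates were left out.

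**Figure D5:**
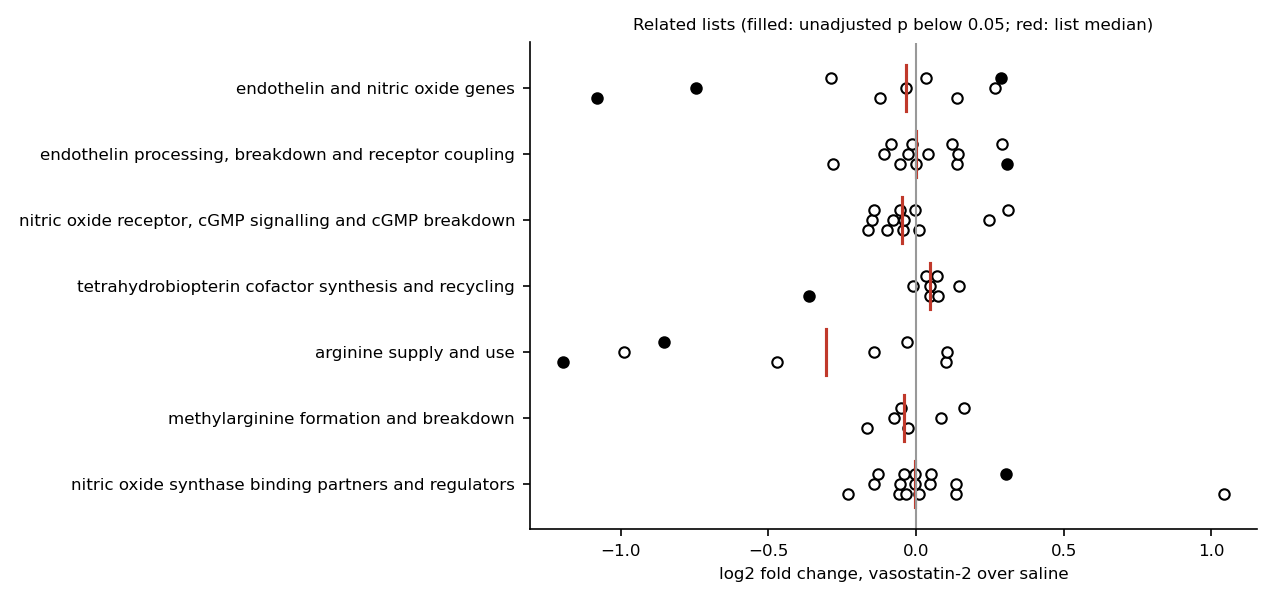
Log2 fold change, vasostatin-2 over saline (horizontal axis), of each tested gene in the 7 lists; filled points have an unadjusted edgeR p below 0.05 and red bars mark list medians. Most points lie near 0; Nos2 (−1.08) and Arg1 (−1.20) are the lowest points of their lists.

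Patterns most like those of Nos2 and Nos3 were sought among 13762 genes of at least 1 CPM, as the root-mean-square difference in log2 CPM over the 6 libraries after centring each gene on its mean. For Nos2, which ranged over 1.45 log2 units, the nearest were Moxd1 at 0.15, Abca4 at 0.17 and Nt5e at 0.20. Moxd1 was at between 3.62 and 5.61 CPM with saline and at most at 2.30 CPM with vasostatin-2. The search picks genes that follow Nos2, so this separation follows from the search and is not a separate result. For Nos3, which ranged over 0.47, they were H2-T22 at 0.034, Pomt1 at 0.038 and Capn5 at 0.040. H2-T22 belongs to a multigene family whose members share sequence, so its counts are uncertain.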

How the data were processed

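RNA was sequenced from 6 femoral arteries on a BGISEQ instrument after oligo(dT) enrichment, per the labels' protocols. HISAT2 2.1.0, the build GRCm38.p6 and DESeq2 1.26.0 are listed in the submitters' processing notes; the counter and its strand setting were not given in the sources used here. The authors deposited estimated counts per gene and library, of which 65.6% were whole. The authors also deposited TPM and FPKM values, and their log2 fold changes with p-values and q-values, positive where vasostatin-2 is higher.

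Counts were rounded, filtered with filterByExpr (14557 genes left, 9 of the 10 members), scaled by TMM and tested with edgeR 4.0.16 (quasi-likelihood, robust) in R 4.3.3, with treatment as the only term and Benjamini-Hochberg adjustment. Intervals of 95% come from the fit. DESeq2 1.42.0 and limma 3.58.1 were alternatives, and the fits were tested on simulated data. Replicates are described as biological, and p-values set the group difference against the spread between these samples, estimated with information from all genes. The members and lists were chosen with earlier results of these data known. Genes named from each list were the most abundant and the one with the smallest p; the likeness search was run for the lower and the higher member with the smallest p. DESeq2 without single replicates was added after seeing the data. Python 3.11 drew the figures.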

Additional observations from a re-analysis of the deposited data

How the results depend on the processing

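Nos2, Ddah1, Nos3, Ece1, Ddah2 and Ednrb kept their direction under all 23 alternatives, which covered other scalings, filters, tests, TPM-based fits and left-out replicates. At an adjusted p of 0.05, DESeq2 called 113 genes in all and 1 of the members, Nos2 (log2 fold change −1.08). Leaving out single replicates with edgeR or DESeq2 gave between 0 and 261 calls over all genes and between 0 and 2 among the members; edgeR gave 2 over all genes without saline replicate 2 and 0 without each other replicate, and DESeq2 gave 23 and 65 when vasostatin-2 replicates 2 and 3 were left out in turn. Over the same replicate omissions the log2 fold change lay between −1.22 and −0.97 for Nos2, between −0.96 and −0.35 for Ddah1, between −0.28 and 0.13 for Edn1, between −0.25 and 0.077 for Ednra, between −0.15 and 0.31 for Nos1, between −0.44 and −0.0075 for Ednrb, between 0.044 and 0.21 for Ece1, between 0.12 and 0.37 for Ddah2, between −0.20 and −0.027 for Vasp, between 0.048 and 0.15 for Oat, between 0.050 and 0.22 for Arrb2, between −0.14 and 0.051 for Prmt1, between −0.027 and 0.12 for Spr and between −0.15 and 0.090 for Hsp90ab1. The sign also turned for values near 0 elsewhere. Edn1 was at 0.011 on log2(TPM + 1), 0.015 on log2(TPM + 0.1) and 0.051 without both replicates 3. Nos1 was at −0.0015, −0.030 and −0.060 in those fits and Hsp90ab1 at −0.012, −0.012 and −0.13. With limma-voom, Nos1 was at −0.27 and Hsp90ab1 at −0.062. The cause was not tested. With the replicate number as a block the log2 fold changes of Edn1, Nos1 and Hsp90ab1 were 0.015, −0.0043 and −0.0047, edgeR called 0 genes as without it, and Nos2 was at −1.08. Same-numbered libraries did not deviate together, with correlations of −0.12, 0.025 and 0.027, so the numbers were not taken to pair the samples. No library correlated best with the library of its own number in the other group. Shares of the summed level were the same within 1 SD with FPKM. TPM and FPKM differ by a common factor within each library, so this was fixed in advance and is not a check. Without the filter Edn3 had a log2 fold change of 0.50 (edgeR adjusted p = 0.931). At this depth 3 counts are between 0.149 and 0.155 CPM, which limits Edn3.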
